A study of Salmo salar with 189 samples.

Results

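Transcript levels of clock genes were compared in the optic tectum (OT), the part of the fish midbrain that receives visual input, between Atlantic salmon that met the morning with lights on as usual (LL) and salmon for which that morning stayed dark (DD). The samples were chosen by their labels alone: OT samples at CT1 and CT5, where CT counts hours from the time at which lights had come on during the preceding light cycle. This gave 12 of the 189 samples of the series, with 3 fish in each combination of light and time (6 LL and 6 DD). All 42 transcripts given as expressed in the OT were described, of 48 entries in the table. The remaining entries were 3 transcripts given as not expressed there and 3 entries that held no value in the OT.

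All groups were pre-smolt Salmo salar of about 45 g, raised under constant light and then held on 8 h of light and 16 h of dark for 8 weeks, per the labels. The methods of the study give a shorter light phase for the same experiment. Fish were fasted from 48 h before the first sampling and kept at 14 °C in the tanks used for sampling. Fish of the LL arm, whose names start with A, had light at CT1 and CT5 as on any earlier day, and the methods count these samples as the end of the light cycle. Fish of the DD arm, whose names start with B, had no light after the preceding light phase and were sampled at the same clock times. Within a group the fish are called fish 1, 2 and 3, numbers that are names only. Because the methods describe a pair of tanks, light and tank cannot be told apart. Each sample is 1 fish, and the p-values measure only the spread between these fish. The CodeSet holds clock gene targets only, so the tissue label could not be set against a marker of the OT, and in a bulk sample fewer cells of a type and less RNA per cell cannot be told apart.

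The vertebrate clock runs as a loop of transcription and repression. Arntl1 (Bmal1) and Clock proteins form the activator that switches on the Per and Cry genes, whose protein products enter the nucleus and repress the activator. Ror proteins activate and Rev-erb proteins (Nr1d1 and Nr1d2) repress transcription of Arntl1, casein kinases 1 mark Per proteins for degradation, and the PAR bZIP factors Tef, Hlf and Dbp carry the rhythm to output genes. In zebrafish, light acts on many tissues directly and raises per2, cry1a and tef transcripts, which is one route by which a clock is set to the day. Salmon hold many clock genes in duplicate from the whole-genome duplication of salmonids (Ss4R), and such duplicates are named here by chromosome (Per2-Ch14 and Per2-Ch3).

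Each target was counted with a colour-barcoded probe that hybridises to 100 bases of its transcript. The targets of the Per2 pair are shown because the results turn on telling these duplicates apart, and that of Rora-Ch26-1 because it had the most negative difference of all transcripts. Capitals mark the longest run of bases that a Per2 target shares with the other Per2 target (5 bases), and in Rora-Ch26-1 the longest run shared with any other target of the CodeSet (11 bases, with Per2-Ch3).
Per2-Ch14: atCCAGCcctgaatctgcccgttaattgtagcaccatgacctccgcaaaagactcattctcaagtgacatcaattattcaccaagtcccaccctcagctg
Per2-Ch3: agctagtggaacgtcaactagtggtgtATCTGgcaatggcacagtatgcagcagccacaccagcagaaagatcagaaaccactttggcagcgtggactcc
Rora-Ch26-1: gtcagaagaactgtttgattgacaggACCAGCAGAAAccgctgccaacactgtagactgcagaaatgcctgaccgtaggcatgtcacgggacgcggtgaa
The Per2-Ch14 target covers bases 4700 to 4799 of its transcript with a GC content of 48.0%, and the Per2-Ch3 target bases 4240 to 4339 with 52.0%. The Rora-Ch26-1 target covers bases 288 to 387 with 53.0%. With no run over 5 bases in common, the Per2 targets read different stretches of the duplicates. Neither target was compared with the whole transcript of the other duplicate, so whether a probe also reads that duplicate was not tested.

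By CT5 the lit fish held more Per2 transcript than the fish in the dark, and at CT1 no Per2 difference was called. Per2-Ch14 signal was 219 ± 24.2 (SD, n = 3) in LL and 81.4 ± 8.11 in DD at CT5, a 2.67-fold difference, and 73.6 ± 4.36 against 75.4 ± 14.9 at CT1. Per2-Ch3 was 1.46-fold higher in LL at CT5. The Per1 duplicates, 1 Arntl1 duplicate, Ror transcripts, the casein kinase transcript CKId-Ch1 and Dbp-Ch5-1 were lower in LL, by up to 1.70-fold at CT5. The higher Per2-Ch14 level was past the threshold under every scaling of the samples that was tried, whereas the size and the number of the lower calls moved with the scaling. When the authors' normalisation to spike-in controls was undone, 0 transcripts were called lower in the average over both times.

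The deposited signal is a barcode count normalised to spike-in controls, so each sample's values are multiples of a step that equals the scaling factor it received. Totals over the 45 entries with values in the OT ran from 24490.8 to 34750.0 in LL and from 32300.7 to 46026.6 in DD, and in steps from 28048 to 39915 and from 27616 to 42633. Averaged over both times, LL minus DD was -0.25 for log2 total signal (exact permutation test over 400 arrangements within time points, two-sided, p = 0.035), -0.21 for the log2 step (p = 0.04) and -0.04 for the log2 total in steps (p = 0.73). At CT5 the steps did not overlap, at 0.782 to 0.8371 in LL and 0.9009 to 1.1145 in DD. The step thus moved with the light groups, and its part in the differences of single transcripts was not tested apart from the alternatives given below. The median difference over the 42 transcripts was -0.26 on the deposited log2 scale and -0.07 after each sample was divided by the geometric mean of its 42 transcripts (the scaled values). Differences are given below on the deposited scale unless a value is named as scaled. DD fish 2 at CT1 held the highest of the 12 signals in 31 of the 42 transcripts and LL fish 2 at CT5 the lowest in 24, against 2 and 8 in the scaled values.

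**Figure D1:**
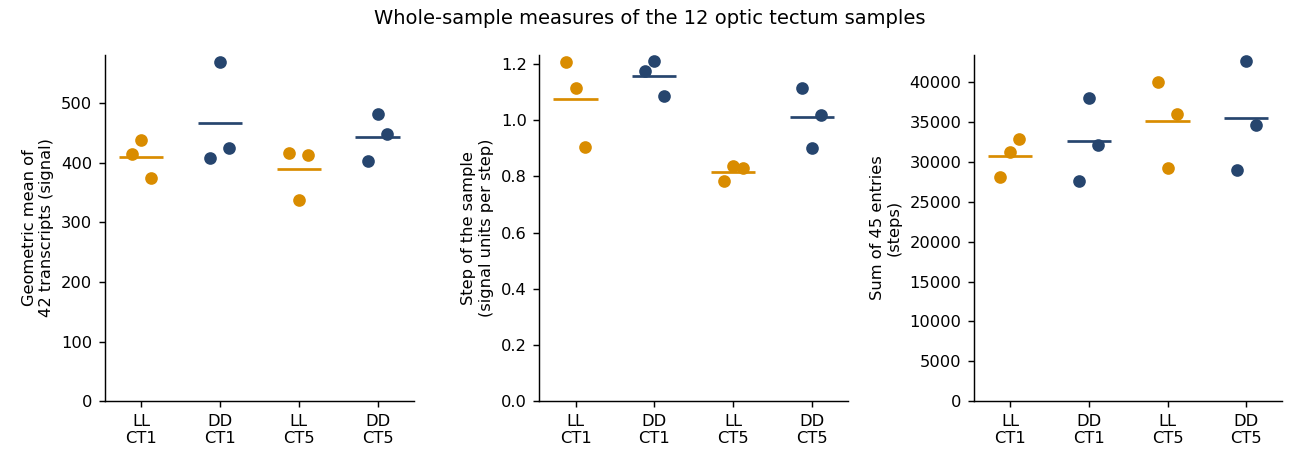
Each point is 1 OT sample, in LL or DD at CT1 or CT5, and each line is the mean of 3 fish. The panels give the geometric mean signal over 42 transcripts, the step (signal per barcode counted) and the sum of the 45 entries in steps. The steps of the LL fish at CT5, 0.782 to 0.8371, lie below all those of the DD fish at CT5, while the sums in steps of LL and DD overlap.

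LL and DD were compared with limma on log2(signal + 1), as the mean of the difference at CT1 and the difference at CT5, with Benjamini-Hochberg adjustment over the 42 transcripts at a threshold of 0.05. Of these, 15 differed (35.7%), with 14 lower in LL (33.3%) and 1 higher (2.38%), and 23 had an unadjusted p under the threshold (54.8%). In the scaled values 17 differed (40.5%), with 12 lower (28.6%) and 5 higher (11.9%), and again 23 had an unadjusted p under the threshold (54.8%). Calls in both numbered 11 lower and 1 higher, and no transcript was called in opposite directions. When the spike-in scaling was undone, by dividing each value by the step of its sample, 3 transcripts were called and all were higher in LL (an alternative chosen after seeing the data). In that fit limma gave all transcripts the same SE (0.16 for the average, 0.22 at CT5), whatever their own spread. The 14 transcripts that were lower in the deposited values all kept a difference below 0 there, but 0 of them were called. A negative difference given below for LL is therefore relative to the spike-ins, and a scaled value is relative to the other clock transcripts.

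The count also moved with single fish, from 15 to 7 without DD fish 2 at CT5, 8 without LL fish 1 at CT1 and 9 without LL fish 3 at CT1, and to 10 and 12 without LL fish 2 at CT5 and without DD fish 2 at CT1. Of the 15, 7 were called in each of the 12 fits that left out 1 fish: Per2-Ch14, CKId-Ch1, Rora-Ch26-1, Rorb-Ch20, Rorb-Ch24, Arntl1-Ch16 and Dbp-Ch5-1.

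**Figure D2:**
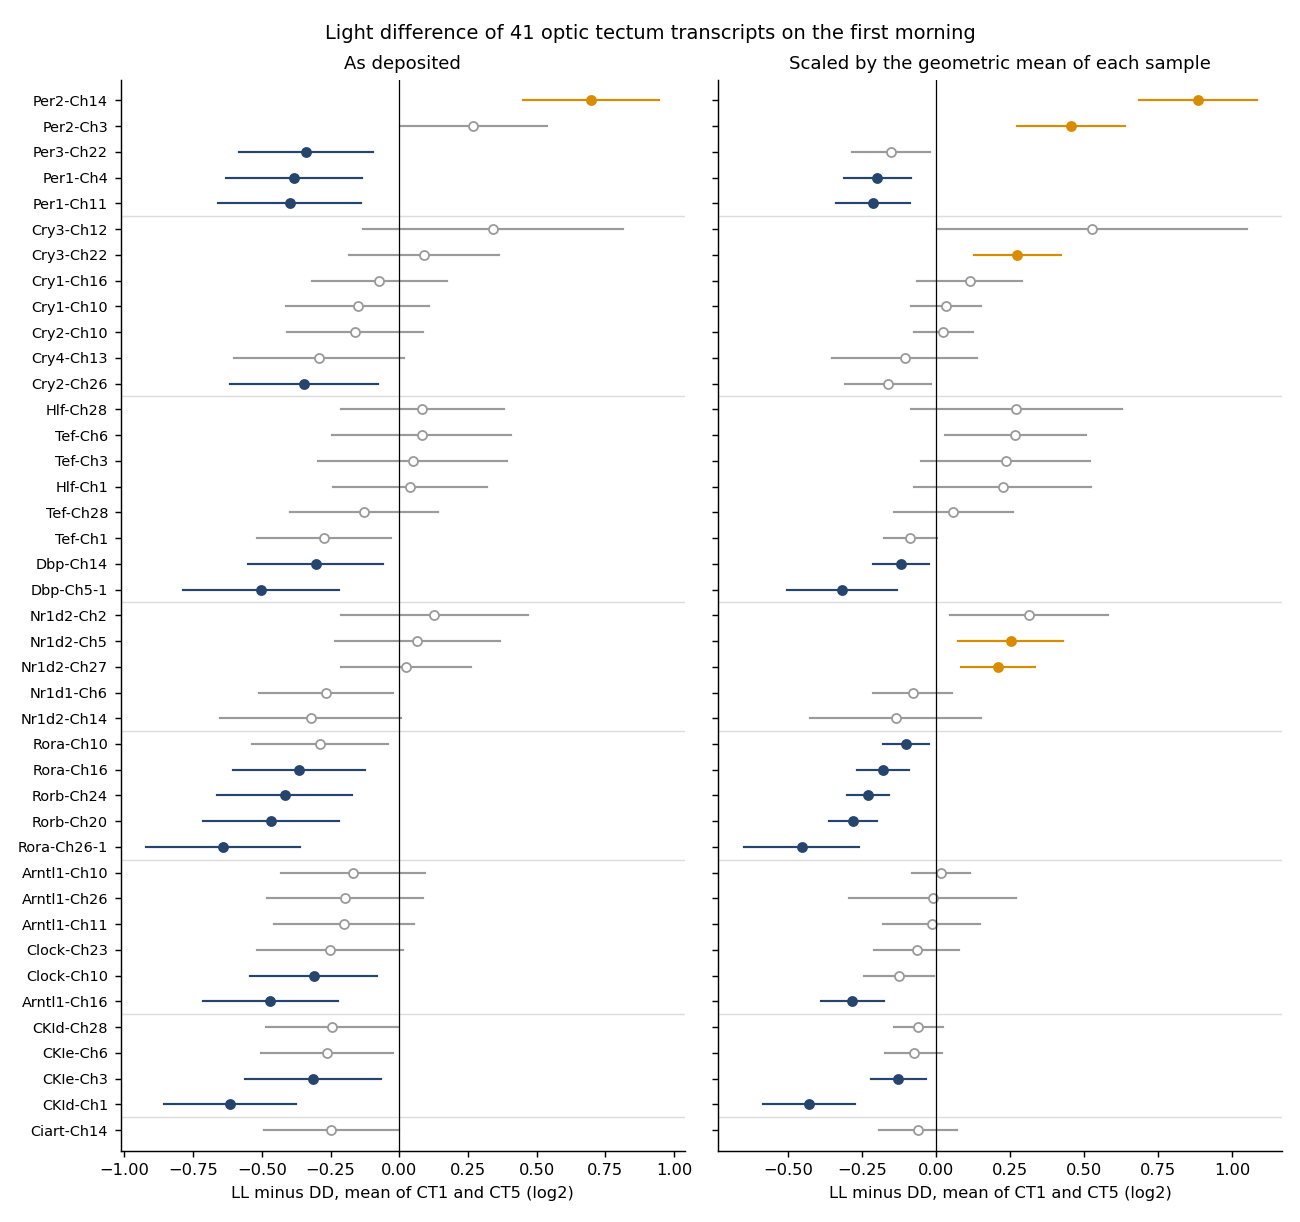
LL minus DD, as the mean of CT1 and CT5, for 41 of the 42 transcripts, grouped by role, in log2 units with 95% intervals, for the deposited signal and for values scaled to the geometric mean of each sample (12 fish). Filled points have a limma adjusted p under 0.05, orange where LL is higher and blue where it is lower, and open points do not. Per2-Ch14 stands apart at 0.70 and most of the others lie between 0 and -0.64 in the deposited values.

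The period genes encode the repressors of the loop, and they split by duplicate family. Per2-Ch14 signal at CT5 was 191.59, 227.7 and 237.6 in the LL fish and 76.9, 76.58 and 90.78 in the DD fish. At CT1 it was 77.3, 74.64 and 68.77 in LL and 63.53, 92.08 and 70.5 in DD. The LL fish at CT5 were all above every other fish, and the other 9 fish overlapped. The difference at CT5 was 1.41 on the log2 scale (SE 0.17, limma adjusted p = 7.9e-07), and 1.61 in the scaled values. At CT1 the difference was -0.02 (95% interval -0.37 to 0.33). The scaled CT1 values were 79.16, 72.15 and 78.01 in LL and 66.16, 68.27 and 70.42 in DD, which do not overlap (as for 6 of 42 with LL higher, 14.3%), with a difference of 0.16 that was not called (adjusted p = 0.51). The difference at CT5 exceeded that at CT1 by 1.43 (SE 0.24, adjusted p = 0.00017). Per2-Ch14 was the only transcript of the 42 whose light difference was called as changed between CT1 and CT5 in the deposited values (2.38%). In that comparison 3 had an unadjusted limma p under the threshold (7.14%). Averaged over both times it was 0.70 higher in LL (SE 0.12, adjusted p = 0.00025), a 1.62-fold difference. The exact permutation test of that average gave p = 0.06, since the CT1 samples do not separate.

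Per2-Ch3, the Ss4R duplicate of Per2-Ch14, moved in the same direction by less. Its signal at CT5 was 139.2, 104.64 and 101.35 in LL and 69.1, 82.88 and 82.62 in DD, and at CT1 93, 85.78 and 66.96 against 68.24, 96.93 and 81.34. LL and DD did not overlap at CT5 and overlapped at CT1. The CT5 difference was 0.54 (SE 0.18, limma adjusted p = 0.032) and 0.74 in the scaled values (adjusted p = 0.00075). It stayed past the threshold in 8 of the 12 fits that left out 1 fish, with an adjusted p of 0.129 without LL fish 1 at CT5. Averaged over CT1 and CT5 it was 0.27 (adjusted p = 0.089), and 0.46 in the scaled values (adjusted p = 0.0015). With the spike-in scaling undone, the differences at CT5 were 1.72 for Per2-Ch14 and 0.84 for Per2-Ch3 (limma adjusted p = 0.0040).

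The Per1 duplicates ran the other way. Per1-Ch4 signal at CT5 was 400.39, 358.3 and 418.71 in LL and 556.12, 653.16 and 613.02 in DD, and at CT1 507.26, 569.25 and 535.7 against 551.77, 749.97 and 499.99. Per1-Ch11 at CT5 was 401.17, 318.95 and 476.86 in LL and 552.78, 682.89 and 584.46 in DD, and at CT1 577.31, 642.78 and 574.61 against 622.36, 829.93 and 601.94. For both, LL lay below DD without overlap at CT5 and overlapped it at CT1. Over all 42 transcripts LL lay below DD without overlap in 20 at CT5 (47.6%) and in 8 at CT1 (19%), and in the scaled values in 16 (38.1%) and 6 (14.3%), so that such a gap at CT5 was common. The CT5 differences were -0.63 for Per1-Ch4 (SE 0.17, limma adjusted p = 0.0095) and -0.62 for Per1-Ch11 (SE 0.18, adjusted p = 0.014). They were -0.43 and -0.42 in the scaled values, where the change of the difference from CT1 to CT5 was also called (-0.47 and -0.42, adjusted p = 0.018 and 0.036). In the deposited values that change was -0.49 and -0.44 and not called (adjusted p = 0.55 and 0.67). Averaged over both times, Per1-Ch4 was -0.38 (adjusted p = 0.018) and Per1-Ch11 -0.40 (adjusted p = 0.018), and both fell short of the threshold without LL fish 1 at CT1 (adjusted p = 0.052) or DD fish 2 at CT5 (0.066 and 0.068), as did Per1-Ch11 without LL fish 2 at CT5 (0.051).

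Per3-Ch22, the single Per3 transcript, had CT5 signals of 470.77, 441.17 and 549.14 in LL and 585.1, 727.03 and 670.14 in DD, and CT1 signals of 684.81, 711.84 and 644.28 against 669.42, 923.22 and 835.12. The groups were apart at CT5, as in the 47.6% above, and overlapped at CT1. The average was -0.34 (limma adjusted p = 0.033) and -0.15 in the scaled values (adjusted p = 0.059), and the deposited call was kept in 5 of the 12 fits without 1 fish. Of the 5 period transcripts, 3 were lower and 1 was higher in LL (median -0.34, against -0.26 over all 42, of which 33.3% were lower and 2.38% higher), and 2 and 2 in the scaled values (28.6% and 11.9% of the 42).

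**Figure D3:**
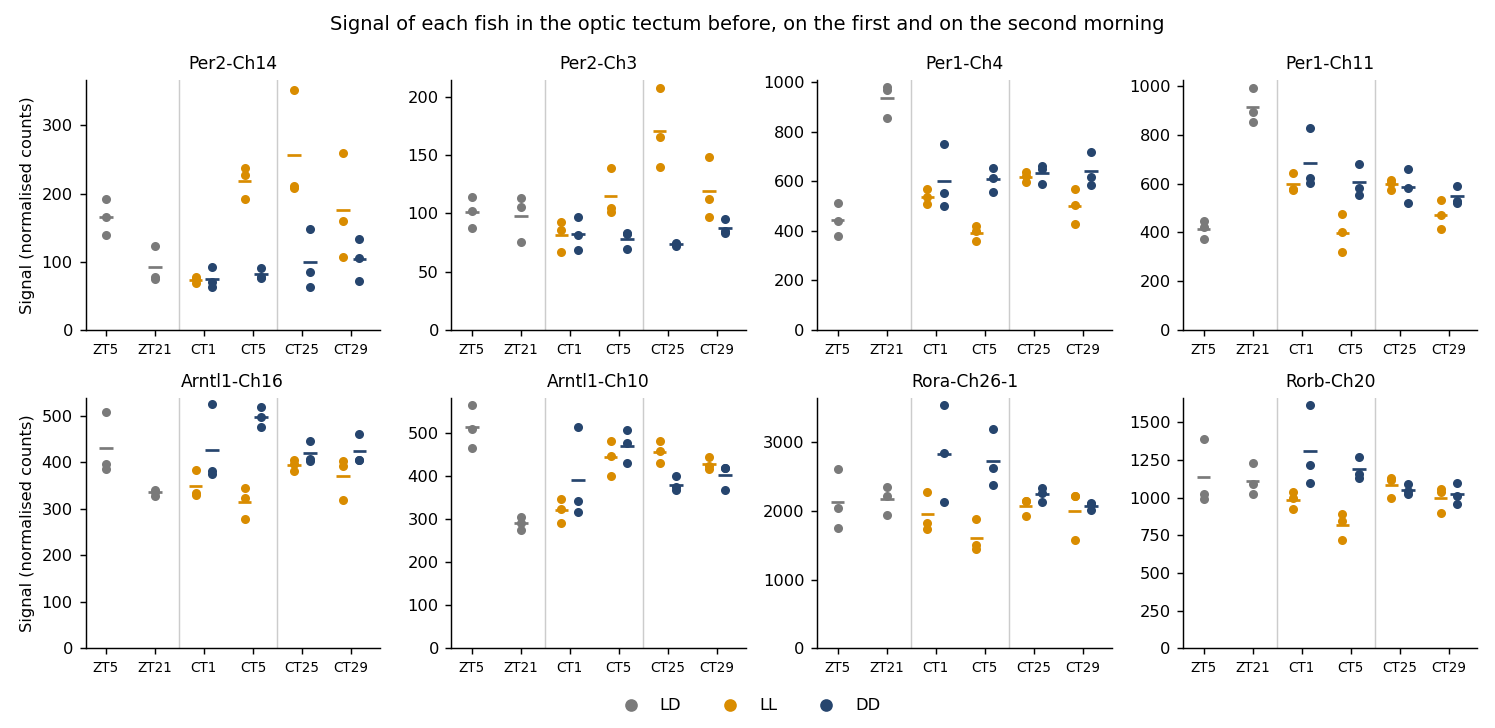
Signal of 8 OT transcripts by sampling time, with ZT5 and ZT21 in the preceding light cycle (LD), CT1 and CT5 on the first morning and CT25 and CT29 on the second, in LL and DD. Each point is 1 fish and each short line is the mean of 3. Per2-Ch14 in LL fish rises from 73.6 at CT1 to 219 at CT5 while it is 75.4 and 81.4 in DD fish, and Per1-Ch4 is 392 in LL and 607 in DD at CT5.

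CT5 was also compared with CT1 within each light group. Per2-Ch14 was 1.56 higher at CT5 than at CT1 in LL (SE 0.17, limma adjusted p = 1.4e-07), the only transcript called in that comparison (2.38%), and 0.12 higher in DD, where 0 of 42 were called by limma and 2 had an unadjusted p under the threshold. After scaling, 14 transcripts changed from CT1 to CT5 in LL (33.3%) and 3 in DD (7.14%). Among those of LL, Per2-Ch3 (0.56), Arntl1-Ch10 (0.54) and Arntl1-Ch11 (0.35) were higher at CT5. Per1-Ch11 (-0.52), Per3-Ch22 (-0.41), Per1-Ch4 (-0.38) and Ciart-Ch14 (-0.36), which encodes a repressor of the Clock and Arntl1 activator, were lower. In the dark fish Arntl1-Ch10 (0.36) and Arntl1-Ch16 (0.30) were higher at CT5 and Cry2-Ch10 (-0.35) was lower. The Per2-Ch14 level of the lit CT5 fish compares with 165 ± 26.7 (n = 3) at ZT5 in the light cycle, the same hour of an earlier day, and that of the dark CT5 fish with 91.8 ± 27.2 at ZT21 of the night. Per1-Ch4 was 444 ± 66.5 at ZT5 and 934 ± 68.1 at ZT21, so the lit CT5 fish (392 ± 31.0) were near the daytime level and the dark ones (607 ± 48.8) lay between night and day. Per1-Ch11 at ZT5 (414 ± 36.0) was likewise near the lit CT5 fish (399 ± 79.0). Other transcripts lower in LL did not share this. Rorb-Ch20 at ZT5 was 1137 ± 222, against 818 in LL and 1187 in DD at CT5. Rora-Ch16 was 2625 ± 325, against 2055 and 2768, so both were nearer the dark fish. CKId-Ch1 (404 at ZT5, against 317 and 517) and Rora-Ch26-1 (2130, against 1607 and 2729) lay between. These earlier samples were not tested against those of the morning. They were compared in the deposited signal alone, without a step or scaled values. A shift of whole samples between the days was therefore not tested, and it could enter each of these comparisons.

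Ror genes encode the activators of Arntl1, and 4 of the 6 expressed in the OT were lower in LL (median -0.39, with 33.3% lower over all 42), and 5 of 6 in the scaled values (median -0.21, with 28.6% lower over all 42). Rora-Ch26-1 signal was 2280.27, 1828.07 and 1735.58 in LL and 2123.55, 3531.75 and 2836.17 in DD at CT1, and 1873.69, 1441.56 and 1507.02 against 2376.05, 3191 and 2621.38 at CT5. The groups overlapped at CT1 through LL fish 1 and were apart at CT5. The average difference was -0.64 (SE 0.14, limma adjusted p = 0.0013), or 1.56-fold lower, and -0.45 in the scaled values (adjusted p = 0.0022). With the spike-in scaling undone it was -0.43, with an adjusted p of 0.071.

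Among the Rorb duplicates, Rorb-Ch20 signal was 995.2, 1037.13 and 924.8 in LL and 1097.66, 1615.03 and 1220.15 in DD at CT1, and 889.14, 718.27 and 847.38 against 1133.42, 1271.18 and 1157.69 at CT5. For Rorb-Ch24 it was 221.02, 232.82 and 199.08 against 257.65, 347.72 and 254.88 at CT1, and 223.65, 181.66 and 213.51 against 257.44, 310.81 and 277.44 at CT5. Every LL fish lay below every DD fish of its time for both, in the deposited and in the scaled values. The averages were -0.47 for Rorb-Ch20 (SE 0.12, limma adjusted p = 0.0058) and -0.42 for Rorb-Ch24 (SE 0.12, adjusted p = 0.011), and -0.28 and -0.23 in the scaled values (adjusted p = 0.00027 and 0.0003). The exact permutation test gave its smallest possible p, 0.005, for both, as for 7 of the 42 transcripts (16.7%; 6 in the scaled values, 14.3%).

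Rora-Ch16 was 2495.25, 2534.34 and 2124.68 in LL and 2647.08, 3539.02 and 2686.5 in DD at CT1, and 2168.5, 1876.04 and 2120.95 against 2661.35, 2951.36 and 2691.76 at CT5. LL and DD did not overlap, and the average was -0.37 (limma adjusted p = 0.018) and -0.18 in the scaled values (adjusted p = 0.0047); without DD fish 2 at CT5 or LL fish 3 at CT1 the adjusted p of the deposited values was 0.066 and 0.068. Its Ss4R duplicate Rora-Ch10 ranged from 2930 to 4082.79 in LL and from 3918.48 to 5512.68 in DD and overlapped at CT1. That duplicate averaged -0.29 (adjusted p = 0.064) and -0.10 in the scaled values (adjusted p = 0.039), a call that held in 3 of the 12 fits without 1 fish.

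Across all 42 transcripts, 6 had all 6 LL fish below all 6 DD fish, whatever the time (14.3%): CKId-Ch1, CKIe-Ch3, Clock-Ch10, Rora-Ch16, Rorb-Ch20 and Rorb-Ch24. After scaling 3 did (7.14%), namely CKId-Ch1 and the Rorb duplicates, and 1 had all LL fish above all DD fish, Cry3-Ch22 (2.38%).

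Casein kinases 1 delta and epsilon phosphorylate Per proteins. CKId-Ch1 signal was 405.81, 321.94 and 334.81 in LL and 452.95, 608.21 and 476.13 in DD at CT1, and 314.37, 303.05 and 332.31 against 484.79, 536.94 and 530.4 at CT5. The highest LL fish was below the lowest DD fish of either time. The average was -0.62 (SE 0.12, limma adjusted p = 0.00042), or 1.53-fold lower, and -0.43 in the scaled values (adjusted p = 0.00097), and -0.41 with the spike-in scaling undone (adjusted p = 0.087). The list of probes in the study does not carry the name CKId-Ch1, so the target behind this entry was taken from the table alone. Its duplicate CKId-Ch28 averaged -0.25 (adjusted p = 0.089). CKIe-Ch3 was -0.31 (adjusted p = 0.045, and -0.13 with an adjusted p of 0.034 in the scaled values) and CKIe-Ch6 -0.26 (adjusted p = 0.072). The call of CKIe-Ch3 held in 3 of the 12 fits without 1 fish.

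In the positive limb, 2 of 6 transcripts were lower in LL (median -0.23), the same share as over all 42 (33.3%), and 1 of 6 in the scaled values. Arntl1-Ch16 signal was 333.34, 383.21 and 330.29 in LL and 381.18, 525.82 and 374.18 in DD at CT1, and 344.08, 277.93 and 323.17 against 497.05, 518.92 and 476.34 at CT5. The groups overlapped at CT1 and were well apart at CT5, where the difference was -0.66 (SE 0.17, limma adjusted p = 0.0067) and -0.47 in the scaled values (adjusted p = 0.0006). Its average was -0.47 (SE 0.12, adjusted p = 0.0058) and -0.28 in the scaled values (adjusted p = 0.001). After scaling, the change of its difference from CT1 to CT5, -0.37, was also called (adjusted p = 0.036), and in the deposited values it was -0.39 (adjusted p = 0.67).

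The duplicate Arntl1-Ch10 did not share this. Its signal was 324.89, 347.57 and 292.28 in LL and 316.47, 514.92 and 342.73 in DD at CT1, and 448.09, 401.83 and 481.85 against 430.19, 507.21 and 476.34 at CT5, with overlap at both times. It averaged -0.17 (limma adjusted p = 0.26) and 0.02 in the scaled values. Its scaled CT5 values were 457.01, 504.57 and 494.66 in LL and 453.56, 446.63 and 450.12 in DD. These do not overlap (as for 7 of 42 with LL higher, 16.7%), but the difference was not called. Arntl1-Ch11 and Arntl1-Ch26 both averaged -0.20 and neither was called. Clock-Ch10 averaged -0.31 (adjusted p = 0.037, and -0.13 with an adjusted p of 0.073 in the scaled values; called in 5 of the 12 fits without 1 fish), and Clock-Ch23 -0.25 (adjusted p = 0.10).

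A ratio of duplicates within a sample is free of the sample's scaling apart from the pseudocount, and it was compared for 15 Ss4R pairs (a comparison added after seeing the data). The pair CKId-Ch1/Ch28 was not among them, because the list of probes does not carry the name CKId-Ch1. The averages of its members, given above, were not alike, and whether their ratio differed was not tested. Of the 15 ratios, 2 were higher in LL on average (13.3%), Arntl1-Ch10 over Arntl1-Ch16 and Per2-Ch14 over Per2-Ch3. At CT5 the log2 ratio Arntl1-Ch10/Ch16 was 0.38, 0.53 and 0.57 in LL and -0.21, -0.03 and 0.00 in DD, and at CT1 -0.04, -0.14 and -0.18 against -0.27, -0.03 and -0.13. All 3 lit fish at CT5 were above 0.3 and no other fish was above 0. The CT5 difference was 0.58 (SE 0.09, limma adjusted p = 0.00079 over the 15 pairs), the average 0.30 (SE 0.06, adjusted p = 0.0088), and both were called in all 12 fits without 1 fish. The CT5 difference exceeded that at CT1 by 0.55 (adjusted p = 0.016, and 0.0503 without LL fish 2 at CT1).

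The log2 ratio Per2-Ch14/Ch3 at CT5 was 0.46, 1.11 and 1.22 in LL and 0.15, -0.11 and 0.13 in DD, and at CT1 -0.26, -0.20 and 0.04 against -0.10, -0.07 and -0.20. Again the lit fish at CT5 lay above all others. The CT5 difference was 0.87 (SE 0.18, limma adjusted p = 0.0044) and was called in all 12 fits without 1 fish, so Per2-Ch14 rose by more than its duplicate. The average, 0.43 (SE 0.13, adjusted p = 0.048), was called in 1 of the 12 fits, with an adjusted p of 0.134 without LL fish 3 at CT1. The change of the difference from CT1 to CT5, 0.89 (adjusted p = 0.040), was called in 2 of the 12, with an adjusted p of 0.11 without DD fish 2 at CT5. The other 13 ratios, those of the Per1, Rorb and Clock duplicates among them, had averages from -0.35 (Nr1d2-Ch14/Ch27) to 0.25 (Cry3-Ch12/Ch22) that were not called. The Rorb-Ch20/Ch24 ratio also did not overlap at CT5, at 1.98 to 1.99 in LL and 2.03 to 2.13 in DD. That CT5 difference of -0.09 was not called (limma adjusted p = 0.43). From CT1 to CT5 within LL, 3 of the 15 ratios were called (20%), the Rorb ratio among them (-0.19, adjusted p = 0.035).

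**Figure D4:**
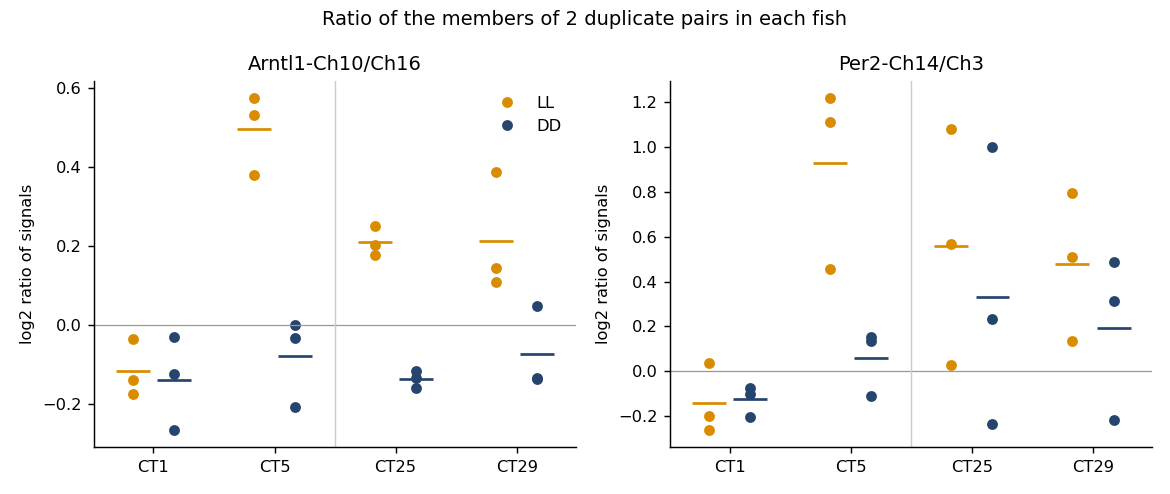
Log2 ratio of the duplicates Arntl1-Ch10 over Arntl1-Ch16 and Per2-Ch14 over Per2-Ch3 in each OT sample, in LL and DD at CT1, CT5, CT25 and CT29, with lines at the mean of 3 fish. At CT5 the LL fish run from 0.38 to 0.57 for Arntl1 and from 0.46 to 1.22 for Per2, above the DD fish at -0.21 to 0.00 and -0.11 to 0.15.

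Cryptochromes repress the activator together with Per proteins, and 1 of the 7 expressed was lower in LL and none higher (median -0.15, with 33.3% lower and 2.38% higher over all 42), while 0 were lower and 1 was higher in the scaled values (28.6% and 11.9%). Cry2-Ch26 was 880.46, 997.03 and 846.98 in LL and 1012.95, 1371.51 and 1009.74 in DD at CT1, and 789.83, 494.75 and 751.02 against 836.97, 875.68 and 904.73 at CT5. It was lower without overlap at each time, but by little at CT1, where the highest LL fish reached 997.03 and the lowest DD fish 1009.74. Its average was -0.35 (limma adjusted p = 0.044) and -0.16 in the scaled values (adjusted p = 0.063), and the call was lost in 7 of the 12 fits without 1 fish.

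Of the Cry3 duplicates, 1 was called in the scaled values and none in the deposited ones. Cry3-Ch22 was 119.57, 138.14 and 105.87 in LL and 97.65, 130.85 and 116.05 in DD at CT1, and 141.54, 95.43 and 139.57 against 95.84, 130.63 and 122.4 at CT5. The deposited values overlapped at both times and averaged 0.09 (limma adjusted p = 0.61). In the scaled values every LL fish lay above every DD fish, at 120.02 to 144.37 against 97.12 to 115.92, with an average of 0.28 (adjusted p = 0.0089), called in all 12 fits without 1 fish. Cry3-Ch12 was 85.75, 82.44 and 47.05 in LL and 47.06, 82.39 and 49.89 in DD at CT1, and 131.38, 37.67 and 123.78 against 55.72, 70.27 and 64.26 at CT5. It held both the highest and the lowest signals in LL, and averaged 0.34 (SE 0.23, adjusted p = 0.22) and 0.53 in the scaled values (adjusted p = 0.088). With the spike-in scaling undone its difference was 0.55 and called (limma adjusted p = 0.013). The SE of that fit was 0.16 for every transcript, below the 0.23 above. In the deposited values without LL fish 2 at CT5 the difference was 0.63 and called.

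No Cry1 transcript was called. Cry1-Ch10 ranged from 323.05 to 406.61 in LL and from 314.28 to 505.23 in DD, and averaged -0.15 (95% interval -0.42 to 0.12). Cry1-Ch16 ranged from 109.91 to 152.62 in LL and from 117.02 to 153.87 in DD and averaged -0.07 (95% interval -0.32 to 0.17). Their scaled averages were 0.03 and 0.11. At CT5, the Cry1-Ch16 difference was 0.02 (95% interval -0.32 to 0.37), an interval that does not reach the 1.41 of Per2-Ch14. Its scaled CT5 values were 132.41, 152.6 and 155.24 in LL and 123.42, 125.25 and 129.12 in DD. These do not overlap (as for 7 of 42 with LL higher, 16.7%), but the difference was not called. With the spike-in scaling undone the CT5 difference was 0.32 (limma adjusted p = 0.48).

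PAR bZIP factors bind the D-box of output genes, and 2 of 8 were lower in LL (median -0.04, with 33.3% lower over all 42), as in the scaled values (28.6%). Dbp-Ch5-1 was 159.43, 206.09 and 122.16 in LL and 176.47, 242.32 and 193.05 in DD at CT1, and 193.16, 139.8 and 155.35 against 221.78, 276.58 and 272.34 at CT5. It overlapped at CT1 and was apart at CT5, with a CT5 difference of -0.66 (limma adjusted p = 0.014). The average was -0.50 (SE 0.14, adjusted p = 0.0089) and -0.32 in the scaled values (adjusted p = 0.011). Dbp-Ch14 averaged -0.30 (adjusted p = 0.0499) and -0.12 in the scaled values (adjusted p = 0.044), a call that held in 3 of the 12 fits without 1 fish.

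None of the Tef transcripts was called in either average. Tef-Ch6 was 2141.37, 1988.48 and 1551.89 in LL and 1168.25, 1960.33 and 1378.5 in DD at CT1, and 1717.29, 894.07 and 1454.68 against 1259.35, 1558.56 and 1697.27 at CT5. Its average was 0.08 (95% interval -0.24 to 0.41) and 0.27 in the scaled values (limma adjusted p = 0.063), where its CT1 difference of 0.53 was called (adjusted p = 0.045). Tef-Ch3 followed it closely, at 0.05 and 0.24. Tef-Ch1 ranged from 3053.06 to 4530.62 in LL and from 4284.99 to 5834.96 in DD and averaged -0.27 (adjusted p = 0.072), and Tef-Ch28 averaged -0.13. The Hlf duplicates averaged 0.04 and 0.08.

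Rev-erb transcripts, the repressors of Arntl1, gave no call in the deposited average (0 of 5, median 0.02, against 35.7% called over all 42). In the scaled values Nr1d2-Ch27 (0.21, limma adjusted p = 0.011) and Nr1d2-Ch5 (0.25, adjusted p = 0.031) were higher in LL, in 12 and 6 of the 12 fits without 1 fish, and Nr1d2-Ch2 averaged 0.31 (adjusted p = 0.059). Their deposited averages were 0.02, 0.07 and 0.13. Nr1d2-Ch14 and Nr1d1-Ch6 lay on the other side, at -0.32 (adjusted p = 0.094) and -0.27 (adjusted p = 0.072), and at -0.14 and -0.08 in the scaled values. Ciart-Ch14 averaged -0.25 (adjusted p = 0.089).

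The times differed in how many transcripts were called. At CT1, 1 h after the usual lights-on, limma called 0 of 42 and 7 had an unadjusted p under the threshold, with 5 called in the scaled values (11.9%), 4 lower (CKId-Ch1, CKIe-Ch3 and the Rorb duplicates) and Tef-Ch6 higher. At CT5 it called 9 (21.4%), 7 lower (16.7%) and 2 higher (4.76%), with 18 under the threshold unadjusted (42.9%). The lower ones were Rora-Ch26-1 (-0.76), CKId-Ch1 (-0.71), Arntl1-Ch16 (-0.66), Dbp-Ch5-1 (-0.66), Per1-Ch4 (-0.63), Per1-Ch11 (-0.62) and Rorb-Ch20 (-0.54), and the higher ones the Per2 duplicates. In the scaled values 17 were called at CT5 (40.5%), 13 lower (31%) and 4 higher (9.52%), which adds Cry3-Ch22 (0.29) and Nr1d2-Ch5 (0.39) to the higher ones. The deposited CT5 count was 2 without DD fish 2 at CT5, 6 without DD fish 3 at CT5 and 19 without DD fish 2 at CT1, and Per2-Ch14 was called in all 12 such fits. With 3 fish against 3, a permutation test at 1 time cannot go below 0.10. The change of the difference from CT1 to CT5 was called for Per2-Ch14 alone in the deposited values, and for 4 transcripts (9.52%) in the scaled ones, the others being Per1-Ch4, Per1-Ch11 and Arntl1-Ch16.

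Other fish were sampled a cycle later, at CT25 and CT29, when LL fish had been lit through the night and DD fish were in their second dark day. Limma called 10 of the 42 there (23.8%), all higher in LL, and in the scaled values 21 (50%), 12 lower (28.6%) and 9 higher (21.4%). The step was not taken for the samples of CT25 and CT29, so its part in their deposited differences was not tested. Per2-Ch14 was 257 ± 82.5 (n = 3) in LL and 98.9 ± 44.2 in DD at CT25, and 175 ± 77.2 against 104 ± 31.3 at CT29, an average of 1.06 (SE 0.25, adjusted p = 0.0069). Per2-Ch3 was higher by 0.80 (adjusted p = 0.0004), and by 1.19 at CT25. At CT25 the Per2-Ch14 difference was already 1.42, at an hour of the day at which it was -0.02 on the first morning, though the fish of CT25 had been in light since the previous day. Of the 14 transcripts lower in LL on the first morning, 9 were below 0 on the second in the deposited values, with 0 called lower and CKIe-Ch3 called higher. In the scaled values, of the 12 lower first, 9 were below 0 and 7 called lower on the second morning, and of the 5 higher first, 5 were above 0 and 4 called higher. Tef-Ch6 and Tef-Ch3 took opposite sides, at 0.27 and 0.24 on the first morning without a call and at -0.53 and -0.51 on the second (adjusted p = 0.0044 and 0.015), all in the scaled values. The Arntl1-Ch10/Ch16 ratio was again higher in LL, by 0.32 (adjusted p = 0.0016 over 15 pairs, of which 4 were called, 26.7%), and the Per2-Ch14/Ch3 ratio was 0.26 (SE 0.24, adjusted p = 0.45). The other 3 called ratios were lower in LL. They were Rora-Ch10/Ch16 (-0.31, limma adjusted p = 0.00097), Clock-Ch10/Ch23 (-0.25, adjusted p = 0.015) and Nr1d2-Ch2/Ch5 (-0.24, adjusted p = 0.010). On the first morning these averaged 0.08, -0.06 and 0.06, and none was called.

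**Figure D5:**
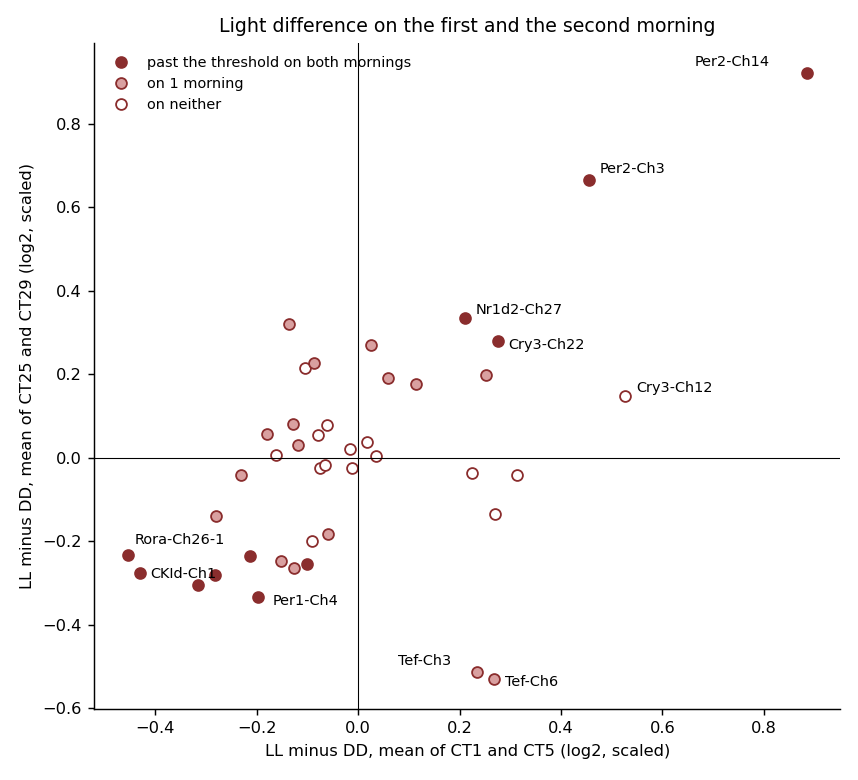
LL minus DD in the OT in the scaled values, with the first morning (CT1 and CT5) on the x axis and the second (CT25 and CT29, other fish) on the y axis, in log2 units, for 42 transcripts. Dark points passed the limma threshold on both mornings, pale ones on 1 and open ones on neither. Per2-Ch14 lies at 0.88 and 0.92 and Per2-Ch3 at 0.46 and 0.67, and 7 of the 12 transcripts lower on the first morning were called lower on the second.

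The same 12 fish gave a saccus vasculosus (SV, a vascular organ on the floor of the hypothalamus) and a gill sample, so the light difference of the OT was set against that of each with fish as a block. The Per2-Ch14 average was 0.13 in the SV (limma adjusted p = 0.67) and -0.14 in the gill (adjusted p = 0.50), and the OT exceeded them by 0.57 (adjusted p = 0.025) and 0.84 (adjusted p = 0.0019), or 0.92 and 0.95 in the scaled values (adjusted p = 0.0009 and 0.0001). Against the gill, 2 of 39 transcripts differed (5.13%), the other being Rora-Ch16 with a difference between the tissues of -0.51 (adjusted p = 0.016), and -0.40 in the scaled values. Against the SV, 18 of 38 differed (47.4%), 17 of them with a lower LL minus DD in the OT, and in the scaled values 6, 4 lower and 2 higher. In the SV alone 7 of 38 were called (18.4%), all higher in LL, so a gap between the tissues also holds the SV's own difference. The lower ones that held in the scaled values were Per1-Ch11 (-0.51, adjusted p = 0.0094), CKId-Ch1 (-0.48, adjusted p = 0.015), Nr1d2-Ch5 (-0.38, adjusted p = 0.0094) and Rora-Ch16 (-0.35, adjusted p = 0.040). The deposited averages of these in the SV were 0.46, 0.22, 0.80 and 0.34, of which those of Per1-Ch11 and Nr1d2-Ch5 were called there. The step was not taken for the SV and gill samples, so its part in the deposited gaps was not tested. All these tissue comparisons are of the mean of CT1 and CT5. At CT5 alone limma called 7 of 38 against the SV (18.4%), 6 with a lower LL minus DD in the OT and 1 with a higher one. Against the gill it called 1 of 39 at CT5 (2.56%), higher in the OT. Rorb was not compared with the gill, where both duplicates were given as not expressed.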

How the data were processed

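Targets were counted with a NanoString CodeSet in total RNA, and the authors normalised the counts to spike-in positive controls in nSolver before depositing the signal values used here. Whether a background was subtracted is not given in the sources used here. All columns of the table were mapped to samples through their titles. Gene identifiers of all 42 transcripts matched RefSeq names (Ssal_v3.1, names only), and target sequences came from the CodeSet sheet of the study.

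Groups were taken from the labels. Signals were analysed as log2(signal + 1) with limma 3.58.1 in R 4.3.3 (4 group means, lmFit and eBayes, Benjamini-Hochberg over 42 transcripts, threshold 0.05), and single averages with an exact permutation test within time points (400 arrangements, smallest p 0.005). Fits were checked on simulated data with independent noise and no shift shared by a sample, so the check does not bear on the scaling. Folds come from log2(signal + 1) and understate changes of low transcripts. Tissues were compared on within-fish differences, because by its title each fish was sampled in every tissue (deviations from group means had a median correlation over genes of 0.191 with the SV (38 genes) and 0.239 with the gill (39 genes) over 12 fish).

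Transcripts named in full were the 12 largest calls of the averaged contrast and their Ss4R duplicates, with the Per2, Cry1, Cry3 and Tef members, of which the less variable were given by range. Some transcripts are not reported here by name, but they were kept in the fits and counts. The members and role lists were chosen with earlier results of these data known. Alternatives were another pseudocount (10), a filter on a mean signal of 50, scaling by the geometric mean, each fish left out, a mean-variance trend, the spread of all 63 OT samples and the unpaired test of the methods, and, chosen after seeing the data, the pair ratios, CKId-Ch1 left out and the spike-in scaling undone.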

Additional observations from a re-analysis of the deposited data

Results flagged for a closer look

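The values here were picked out because a light difference was not the same in both groups set side by side, by a test of that difference itself. In the OT, the Per2-Ch14 difference between LL and DD was larger at CT5 than at CT1 by 1.43 on the log2 scale (limma adjusted p = 0.00017), with all 3 LL fish above all 3 DD fish at CT5. The log2 ratio Arntl1-Ch10/Ch16 differed more at CT5 by 0.55 (adjusted p = 0.016) and Per2-Ch14/Ch3 by 0.89 (adjusted p = 0.040), both with the LL fish above the DD fish at CT5. Of the 12 fits without 1 fish, 11 called the Arntl1 ratio and 2 the Per2 ratio.

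Set against the SV of the same fish, 18 of 38 transcripts were called (47.4%). The OT difference was higher for Per2-Ch14, by 0.57 (limma adjusted p = 0.025), and lower for 17 transcripts. The largest gaps were -0.86 for Per1-Ch11, -0.83 for CKId-Ch1, -0.79 for Nr1d1-Ch6, -0.73 for Nr1d2-Ch5, -0.70 for Rora-Ch16 and -0.68 for Tef-Ch6. Of these, Nr1d1-Ch6 and Tef-Ch6 were not called in the scaled values, and in the SV alone Nr1d1-Ch6 was 0.52, Nr1d2-Ch5 0.80 and Tef-Ch6 0.76 higher in LL. The positive limb gave -0.58 for Arntl1-Ch16, -0.49 for Arntl1-Ch10, -0.45 for Arntl1-Ch11 and -0.42 for Clock-Ch10. Output factors gave -0.52 for Tef-Ch3, -0.50 for Dbp-Ch14, -0.49 for Tef-Ch28 and -0.48 for Dbp-Ch5-1, and the rest were -0.44 for Cry2-Ch26, -0.42 for Nr1d2-Ch2 and -0.41 for CKId-Ch28. None of these gaps of the positive limb, the output factors and the rest was called lower in the scaled values. Each gap also holds the SV's own difference. Without the fish as a block 7 of the 18 were called. Set against the gill, the OT difference was higher for Per2-Ch14, by 0.84 (adjusted p = 0.0019), and lower for Rora-Ch16, by -0.51 (adjusted p = 0.016). Groups held 3 fish, too few to test single fish as outliers.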

How the results depend on the processing

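Scaling by the geometric mean gave 5 calls at CT1, 17 at CT5, 4 for the change between them, 21 on the second morning, and 6 against the SV and 4 against the gill. With the spike-in scaling undone, 3 were called on average and 3 at CT5. The spread of all 63 OT samples gave 1 at CT1 and 20 at CT5, and a mean-variance trend 14 at CT5. Without the replicate block by fish, 7 transcripts differed from the SV in place of 18 and 3 from the gill in place of 2. Leaving out 1 fish gave 7 to 19 calls on average (13 to 24 scaled, 24 without LL fish 2 at CT5), 0 to 4 at CT1 (4 without LL fish 2 at CT5), 2 to 19 at CT5, 1 to 2 for the change (2 without DD fish 2 at CT1), and for pair ratios 1 to 2 on average, 2 to 4 at CT5 and 0 to 2 for the change. The methods' t-test called 17 before and 10 after Benjamini-Hochberg.

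Values that changed sign passed no threshold. Scaling turned the averages of Cry1-Ch10 (0.034), Cry1-Ch16 (0.11), Tef-Ch28 (0.059) and Arntl1-Ch10 (0.017), and at CT5 Cry1-Ch10 (0.10), Tef-Ch28 (0.087), Tef-Ch3 (0.0035), Tef-Ch6 (0.0020) and Arntl1-Ch10 (0.11). Undoing the spike-in turned the averages of Cry1-Ch10 (0.057), Cry1-Ch16 (0.14), Tef-Ch28 (0.081) and Arntl1-Ch10 (0.040), and at CT5 CKIe-Ch3 (0.069), Cry1-Ch10 (0.21), Tef-Ch28 (0.20), Tef-Ch3 (0.11), Tef-Ch6 (0.11), Clock-Ch23 (0.024) and Arntl1-Ch10 (0.22). Without 1 fish, averages ran from -0.075 to 0.21 for Tef-Ch3 and from -0.017 to 0.22 for Tef-Ch6, and CT5 differences from -0.44 to 0.12 for Tef-Ch3, -0.39 to 0.082 for Tef-Ch6, -0.067 to 0.090 for Cry1-Ch16, -0.22 to 0.0096 for Tef-Ch28, -0.033 to 0.28 for Cry3-Ch22 and -0.23 to 0.030 for Cry1-Ch10. For single transcripts, 1022 values under an alternative kept direction and side of the threshold, 102 lost and 65 gained a call. The cause was not tested. A planned count model was not run, although the values are whole multiples of a step.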
